A study of Mus musculus with 8 samples.

Results

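Milk carries proteins that act against microbes in the gland and in the gut of the young, and 9 genes for such proteins are described here: Ltf, Lcn2, Lpo, Sftpd, Lbp, Saa1, Saa2, Saa3 and Pigr. They were chosen by name, with results of the same comparison known, out of 55933 genes in the deposited table, and each name has a single entry there. What was measured is their RNA, not the protein in milk. The 8 RNA-seq libraries come from the mammary epithelium of 4 control mice, labelled WT, and 4 cKO mice, all C57BL/6 females on day 14.5 of pregnancy, and each mouse gave 1 library. The cKO mice carried K14-rtTA, teto-Cre and Bmpr1a fl/fl, so that doxycycline in the drinking water switches on Cre in cells that use the K14 promoter, which in the mammary gland are the myoepithelial cells. The controls were littermates, and neither their genotype nor the mice that shared a litter is given in the sources used here, and whether they drank doxycycline is not stated for them. The cells were freed from the glands with collagenase and hyaluronidase, a step meant to take the fat away, and were rid of erythrocytes, and no sort is described for these libraries, so luminal, myoepithelial and remaining stromal cells share a library.

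Much of this defence rests on withholding iron, on marking or binding bacteria, and on carrying antibody into the lumen. Lactoferrin and lipocalin 2 take iron from microbes, lactoperoxidase makes an antimicrobial oxidant, collectins and lipopolysaccharide-binding protein recognise microbial surfaces, serum amyloid A proteins are acute phase apolipoproteins, and the polymeric immunoglobulin receptor carries IgA through the epithelial cell. In the mammary gland the luminal epithelium makes several of them, and some are also made by neutrophils, macrophages, adipocytes, liver or lung.

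Levels are given in FPKM, which divides the fragments on a gene by its length and by the depth of the library. A log2 fold change is the cKO mean minus the control mean of log2(FPKM + 1), and it is smaller than the log2 ratio for genes at low levels. Between 16123108 and 19896988 reads lay on genes per library. Bmpr1a, the targeted gene, was at 8.74 to 11.7 FPKM in the control libraries and 10.2 to 12 in the cKO libraries. Its log2 fold change was 0.13 ± 0.10 (SE, n = 4 and 4, limma adjusted p = 0.560). A loss of its RNA was thus not seen in cKO libraries, and each direction below rests on the labels. The value counts all exons in all cells of a library, so it may not show a loss confined to cells that use the K14 promoter. Luminal markers such as Krt8 and Epcam were present in all libraries, and their sum over 6 genes was 5955 ± 700 FPKM in control and 5813 ± 909 FPKM in cKO libraries (SD, n = 4; exact two-sided permutation test, p = 0.771, Benjamini-Hochberg adjusted p = 0.857 over 10 marker sums). In such bulk libraries, fewer cells of a type and less RNA per cell cannot be told apart.

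All 9 genes passed the filter on low values, a mean of at least 0.5 FPKM, with between 37 reads for the lowest and 41109 reads for the highest in a library. The mean was higher in the cKO libraries for 9 of the 9 genes, which holds for 50.2% of the 15143 genes tested. In 7 of them every cKO library lay above every control library, as in 6.1% of all genes tested, and the ranges of Ltf and Lbp overlapped. None of the 9 lay wholly lower in cKO, as 4.6% of all genes did. The log2 fold changes ran from 0.06 for Ltf to 1.72 for Sftpd with a median of 0.90, beside a median of 0.0007 over all genes tested. Because these values were known when the genes were chosen, they are a description and carry no test. In the limma fit over all genes, Sftpd, Saa1 and Saa3 had an adjusted p under 0.05 and were higher, as for 0.588% of all genes tested, and nothing is read from that count. At an unadjusted p under 0.05, 8 of the 9 were higher, as for 8.85% of all genes tested. Leaving out control replicate 1, 2, 3 or 4 left 0 of the 9 past the adjusted threshold, leaving out cKO replicate 1, 3 or 4 left Sftpd alone, and leaving out cKO replicate 2 left all 3. Without the filter on low values it was also 0 of the 9. With a block for replicate number limma called 0 as well, while limma-voom called 5 without that block and 7 with it.

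**Figure D1:**
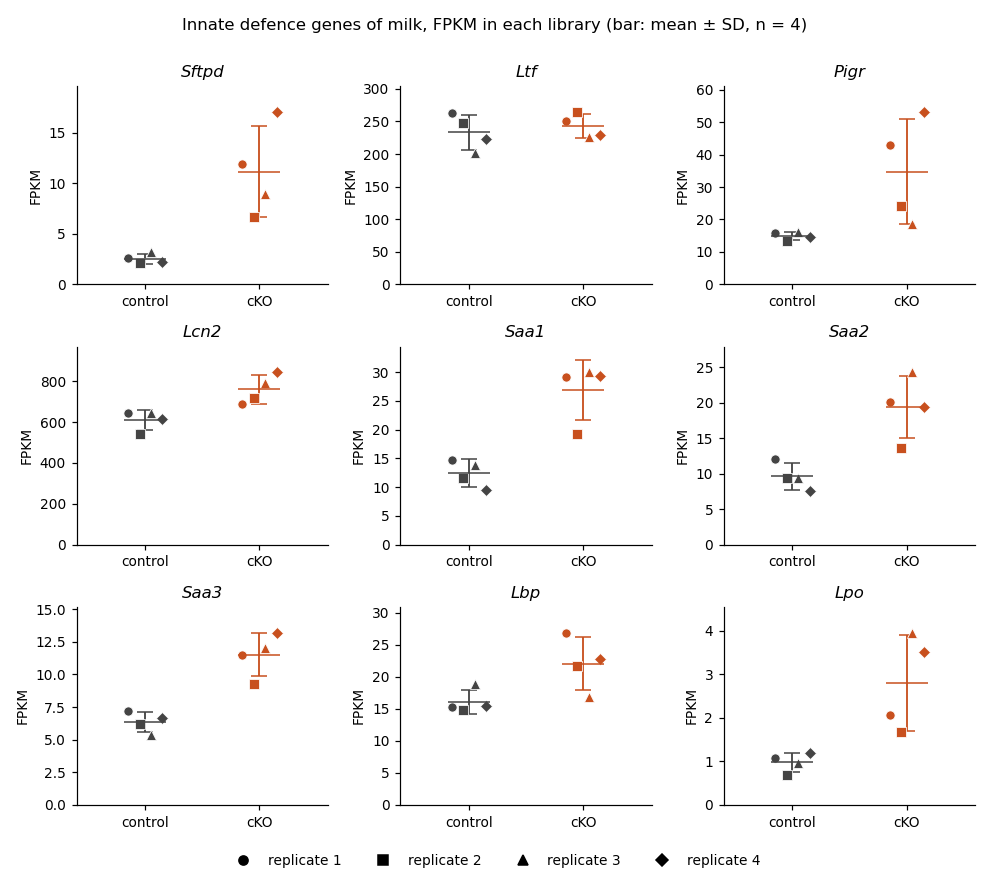
FPKM of each of the 9 genes (linear axes from 0) in the 4 control (grey) and 4 cKO (orange) libraries, with the mean and SD of each group as a bar and the replicate number as the symbol. Every cKO point lies above every control point except for Ltf and Lbp, and the cKO points of Pigr spread from 18.6 to 53.1 FPKM.

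Ltf encodes lactoferrin, an iron-binding glycoprotein of milk and of neutrophil granules, and lies at chr9:111019271-111042767 on the plus strand of GRCm38. Its level was 263, 248, 202 and 223 FPKM in control replicates 1 to 4 and 251, 264, 226 and 230 FPKM in cKO replicates 1 to 4. These values overlapped throughout, and the means were 234 ± 26.9 and 243 ± 18.2 FPKM (SD, n = 4). The log2 fold change was 0.06 ± 0.10 (SE, n = 4 and 4), and among the alternatives computed it ranged from -0.01 to 0.12.

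Lcn2 encodes lipocalin 2, which captures bacterial siderophores, and lies at chr2:32384633-32388252 on the minus strand. It had the highest level of the 9 genes, with 645, 540, 644 and 617 FPKM in the control libraries and 691, 716, 794 and 844 FPKM in the cKO libraries. The lowest cKO library was above the highest control library, by less than the SD of either group. The cKO mean was 1.24 times the control mean, 761 ± 70.4 against 612 ± 49.5 FPKM (SD, n = 4), with a log2 fold change of 0.31 ± 0.10 (SE, n = 4 and 4).

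Lpo encodes lactoperoxidase, the peroxidase of milk, and lies at chr11:87806428-87828289 on the minus strand. It was the lowest of the 9 genes, with 1.09, 0.681, 0.971 and 1.19 FPKM in the control libraries and 2.07, 1.68, 3.96 and 3.50 FPKM in the cKO libraries, from 37 to 204 reads. The groups did not overlap, and cKO replicates 3 and 4 were above cKO replicates 1 and 2. The ratio of the means was 2.85 and the log2 fold change 0.90 ± 0.20 (SE, n = 4 and 4), a gap between scales that comes with so low a level: with a pseudocount of 0.1 the log2 fold change was 1.37.

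Sftpd encodes surfactant protein D, a collectin that binds sugars on microbial surfaces and is best known from the lung, and lies at chr14:41172214-41185149 on the minus strand. Its level was 2.55, 2.10, 3.16 and 2.25 FPKM in the control libraries and 11.9, 6.67, 8.91 and 17.1 FPKM in the cKO libraries. The lowest cKO library, replicate 2, still had more than the highest control library, replicate 3. The mean was 4.43 times as high in the cKO libraries, 11.1 ± 4.50 against 2.52 ± 0.469 FPKM (SD, n = 4), with a log2 fold change of 1.72 ± 0.24 (SE, n = 4 and 4), the largest of the 9.

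Lbp encodes lipopolysaccharide-binding protein, which hands bacterial lipopolysaccharide to CD14, and lies at chr2:158306493-158332852 on the plus strand. Its level was 15.2, 14.9, 18.9 and 15.4 FPKM in the control libraries and 26.9, 21.7, 16.8 and 22.7 FPKM in the cKO libraries. The overlap came from replicate 3 of both groups, the highest control and the lowest cKO library. The log2 fold change was 0.42 ± 0.13 (SE, n = 4 and 4) over all libraries, 0.65 within replicates 1 and 2 and 0.19 within replicates 3 and 4.

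Pigr encodes the polymeric immunoglobulin receptor, which moves IgA from the basal to the luminal side of the epithelium, and lies at chr1:130826684-130852249 on the plus strand. Its level was 15.7, 13.4, 16.0 and 14.5 FPKM in the control libraries and 43.1, 24.0, 18.6 and 53.1 FPKM in the cKO libraries. The control libraries lay close together, with a coefficient of variation of 8.03%, and the cKO libraries far apart, with 46.5%. The ratio of the means was 2.33 and the log2 fold change 1.05 ± 0.29 (SE, n = 4 and 4). Its SD within groups on the log2 scale was above that of 95.8% of all genes tested.

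Saa1, Saa2 and Saa3 encode serum amyloid A proteins, and they lie together on chromosome 7 at chr7:46740497-46742980 (minus strand), chr7:46751790-46754313 (plus strand) and chr7:46711998-46715700 (minus strand). Saa1 and Saa2 are divergent neighbours 8809 bases apart, and Saa3 ends 24796 bases from Saa1. The 250 bases before each RefSeq start site are printed here because the upstream sequences of Saa1 and Saa2 are nearly the same and that of their neighbour Saa3 is not. They are from RefSeq (build GRCm38.p6), written 5′ to 3′ on the strand of the gene, at chr7:46742981-46743230 (minus) for Saa1, chr7:46751583-46751832 (plus) for Saa2 and chr7:46715677-46715926 (minus) for Saa3. Capitals mark letters that match, on either strand, one of the C/EBP motifs TTGCNNAA or ATTGCNNCA, where N is any base and a match on the opposite strand reads as the reverse complement.
Saa1: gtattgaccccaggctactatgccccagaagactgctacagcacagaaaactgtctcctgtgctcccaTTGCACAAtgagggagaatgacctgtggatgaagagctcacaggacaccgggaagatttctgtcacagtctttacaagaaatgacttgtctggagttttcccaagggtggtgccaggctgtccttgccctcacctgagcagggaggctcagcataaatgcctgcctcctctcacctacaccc
Saa2: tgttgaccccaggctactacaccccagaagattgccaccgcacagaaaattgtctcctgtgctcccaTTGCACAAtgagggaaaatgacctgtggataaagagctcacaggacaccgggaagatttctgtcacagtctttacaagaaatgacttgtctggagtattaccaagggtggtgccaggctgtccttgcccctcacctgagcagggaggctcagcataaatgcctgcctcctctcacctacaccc
Saa3: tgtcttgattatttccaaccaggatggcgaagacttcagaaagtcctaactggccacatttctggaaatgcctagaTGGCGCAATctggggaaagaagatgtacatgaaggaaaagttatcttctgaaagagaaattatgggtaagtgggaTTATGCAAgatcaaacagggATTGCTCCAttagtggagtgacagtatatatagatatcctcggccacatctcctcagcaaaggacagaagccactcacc
The windows of Saa1 and Saa2 were identical at 94.8% of aligned positions, and both hold the same C/EBP match. The window of Saa3 was identical to that of Saa1 at 48.9% of aligned positions and holds 3 matches at other places.

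In the libraries, Saa1 was at 14.8, 11.6, 13.9 and 9.48 FPKM in control and 29.1, 19.2, 30.0 and 29.4 FPKM in cKO replicates 1 to 4. Saa2 was at 12.1, 9.42, 9.41 and 7.53 FPKM in control and 20.1, 13.7, 24.3 and 19.4 FPKM in cKO. Saa3 was at 7.22, 6.22, 5.34 and 6.65 FPKM in control and 11.5, 9.28, 12.1 and 13.2 FPKM in cKO. Each of these genes had its lowest cKO value in cKO replicate 2, and in none of them did the groups overlap. The cKO means were 2.16, 2.01 and 1.81 times the control means, and the log2 fold changes were 1.05 ± 0.17 for Saa1, 0.93 ± 0.18 for Saa2 and 0.76 ± 0.11 for Saa3 (SE, n = 4 and 4).

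The reads of Saa1 and Saa2 may have been split between them. Their principal coding transcripts were identical at 87.3% of aligned positions, and 13.2% of the 50-base windows but 0% of the 100-base windows of Saa1 occur in Saa2 without a mismatch. Their annotated retained intron transcripts, which count toward the gene lengths of the table, were identical at 96.7%, and 31.7% of the 50-base and 9.80% of the 100-base windows are shared. The ratio of Saa1 to Saa2 FPKM was 1.22 to 1.48 in control and 1.23 to 1.51 in cKO libraries, which does not show whether reads were split. How many reads fit both genes was not measured, so the separate values of these neighbours are uncertain. Saa3 was identical to Saa1 at 61.6% of aligned transcript positions, with 1.61% of the 50-base windows of Saa1 present in Saa3.

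Upstream windows were given for 7 of the 9 genes, all but Sftpd and Lbp, and motifs were searched on both strands of the 250 bases. The C/EBP core TTGCNNAA was found in 5 of the 7 (Ltf, Lcn2, Saa1, Saa2 and Saa3) and in 9.56% of 32851 RefSeq windows, and its second form ATTGCNNCA in Saa3 and in 1.79% of windows. The NF-kB core, GGGA and CC with any 4 bases between them, was found in Pigr and in 17.6% of windows. The Pigr window, chr1:130826434-130826683 on the plus strand of GRCm38.p6, is shown because it was the only one of the 7 with this match, which is in capitals.
Pigr: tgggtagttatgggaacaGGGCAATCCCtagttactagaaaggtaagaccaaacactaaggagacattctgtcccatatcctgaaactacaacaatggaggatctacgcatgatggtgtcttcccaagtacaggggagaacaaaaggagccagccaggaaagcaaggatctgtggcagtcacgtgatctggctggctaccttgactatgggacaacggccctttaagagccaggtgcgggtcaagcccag
The SMAD element CAGAC was found in Saa1, Saa2 and Lpo and in 42.2% of windows, and the STAT core TTCNNNGAA in 0 of the 7 and in 7.02% of windows. A match describes these letters and shows no binding.

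The cKO libraries did not rank alike for all genes, as the plot of each cKO library against the control mean shows. Against the control mean, Pigr was 1.53, 0.69, 0.32 and 1.83 higher on the log2 scale in cKO replicates 1 to 4, and Lbp was 0.74, 0.43, 0.06 and 0.50 higher. Both were thus lowest in cKO replicate 3. Saa2, with 1.06, 0.50, 1.34 and 1.01, and Lpo, with 1.07, 0.78, 2.01 and 1.84, were lowest in cKO replicate 2 and highest in cKO replicate 3. Over the 8 libraries, Pearson's r of log2(FPKM + 1) was 0.89 between Pigr and Lbp, 0.98 between Saa1 and Saa2, 0.92 between Saa3 and Lpo and 0.46 between Lbp and Lpo. These values share their libraries and the group difference, so they are a description.

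**Figure D2:**
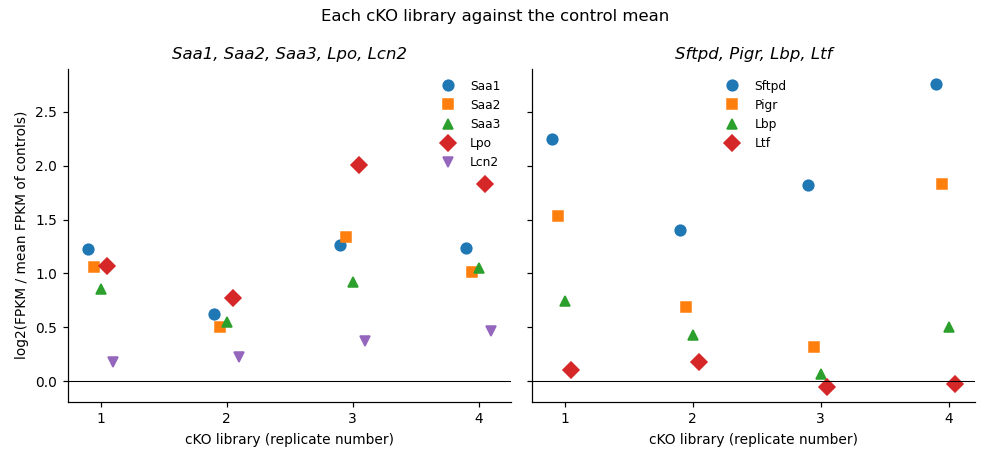
Log2 of the FPKM in each cKO library over the mean FPKM of the 4 controls, for Saa1, Saa2, Saa3, Lpo and Lcn2 (left) and Sftpd, Pigr, Lbp and Ltf (right), with the replicate number on the x axis and 0 as the control mean. On the left, Saa1, Saa2, Saa3 and Lpo are lowest in replicate 2, and on the right Pigr and Lbp are lowest in replicate 3, at 0.32 and 0.06.

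Lcn2 and Ltf supplied most of the reads. Of all reads on genes, the 9 genes took 0.270% ± 0.0168 in control and 0.321% ± 0.00639 in the cKO libraries (SD, n = 4), and Lcn2 and Ltf together held 91.7% ± 0.546 of these in control and 87.0% ± 2.58 in cKO. The other 7 genes took 0.0224% ± 0.00206 of all reads on genes in control and 0.0419% ± 0.00886 in cKO libraries. In the controls the order of FPKM was Lcn2, Ltf, Lbp, Pigr, Saa1, Saa2, Saa3, Sftpd and Lpo, and the ranges of Lbp and Pigr, of Pigr and Saa1, and of Saa1 and Saa2 overlapped. In the cKO libraries Pigr and Saa1 came before Lbp, and Saa3 and Sftpd also overlapped.

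This order depends on the length by which reads are divided. The gene lengths of the table span all annotated exons, those of retained intron transcripts included. They are 2478 bases for Saa1 against 609 for its principal coding transcript, 2606 against 555 for Saa3 and 2623 against 915 for Lcn2, but 4025 against 3849 for Pigr. Saa1 and Lcn2 have annotated retained intron transcripts, while Saa3 and Pigr have 0. With the transcript lengths, an alternative chosen after seeing the data, the control means were 1753 FPKM for Lcn2, 294 for Ltf, 50.7 for Saa1, 37.2 for Saa2, 30.8 for Lbp, 29.8 for Saa3, 15.6 for Pigr, 4.77 for Sftpd and 1.05 for Lpo. Saa1, Saa2 and Saa3 then stood above Pigr. The ratio between the groups of any one gene is the same with either length.

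**Figure D3:**
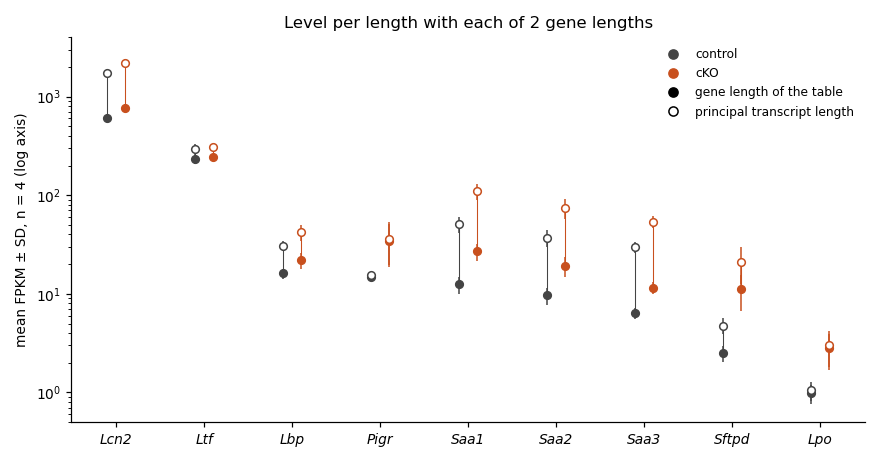
Mean FPKM ± SD (n = 4, log axis) of the 9 genes in control (grey) and cKO (orange) libraries, with the gene length of the table (filled) and the length of the principal coding transcript (open). Saa1 moves from 12.5 to 50.7 FPKM in control and Pigr only from 14.9 to 15.6, which changes their order.

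Neutrophils make Ltf and Lcn2, so their markers were read beside these genes. Of 13 neutrophil markers, 9 were under 1 FPKM in every library, and Ly6g, a defining surface marker, had 0 reads in 7 of 8 libraries and 1 read in the other. Other markers had reads in every library, with 18 to 50 for Csf3r, 8 to 26 for Cxcr2, 5 to 17 for Prtn3 and 69 to 158 for S100a9. The sum of the 13 markers was 160 to 191 FPKM in control and 170 to 236 FPKM in cKO libraries (exact two-sided permutation test, p = 0.114, adjusted p = 0.229 over the 10 sums), and S100a8, which encodes an alarmin subunit that epithelium can also express, made up 92.7% of it. A sum without S100a8 and S100a9 was chosen after seeing the data, and the part of neutrophils in Ltf and Lcn2 was not tested. Without S100a8 and S100a9 the sum was 3.28 ± 1.56 FPKM in control and 1.97 ± 0.312 FPKM in cKO libraries (SD, n = 4; exact two-sided permutation test, p = 0.286), beside 612 FPKM of Lcn2 and 234 FPKM of Ltf in control.

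Sftpd is a lung gene by name, and lung genes were read in the same way. Sftpa1, Sftpb and Nkx2-1 had 0 reads in all 8 libraries, which allows up to 3 reads per library for counting error only, and Sftpc reached at most 0.365 FPKM. Of the 9 lung genes, 3 passed the filter (Abca3, Etv5 and Napsa), and limma and limma-voom called 0 of them. At an unadjusted p under 0.05, 1 was lower, beside 7.53% of all genes tested. Abca3, a lipid transporter, was at 5.46 ± 0.768 FPKM in control and 6.18 ± 0.859 FPKM in cKO libraries (SD, n = 4).

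**Figure D4:**
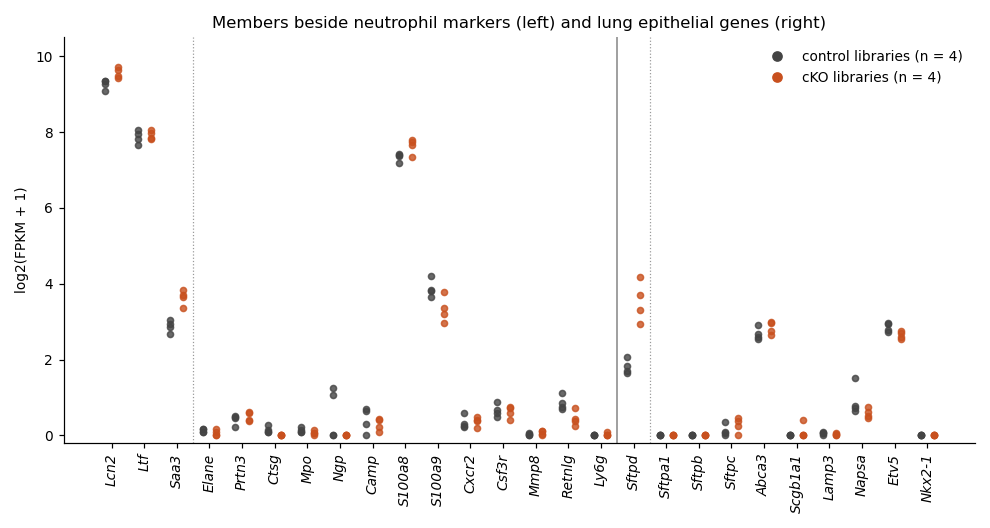
Log2(FPKM + 1) in each control (grey) and cKO (orange) library of Lcn2, Ltf and Saa3 beside 13 neutrophil markers, and of Sftpd beside 9 lung epithelial genes. Apart from S100a8 and S100a9 the neutrophil markers lie near 0, and Sftpa1, Sftpb and Nkx2-1 are at 0 in every library.

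Macrophages and adipocytes can also make Saa3, and adipocytes Lcn2 and Lbp. The sum of 8 macrophage markers was 300 to 409 FPKM in control and 183 to 304 FPKM in cKO libraries (exact two-sided permutation test, p = 0.0571, adjusted p = 0.229). Of the 8, 0 passed limma's adjusted threshold or were called by limma-voom. At an unadjusted p under 0.05, 5 were lower, beside 7.53% of all genes tested. In 3 of the 8 every cKO library lay below every control library (4.6% of all genes tested), and the median log2 fold change was -0.43. The sum of 7 adipocyte markers was 78.8 to 122 FPKM in control and 102 to 138 FPKM in cKO libraries (exact two-sided permutation test, p = 0.0857, adjusted p = 0.229), with 91.2% of it from Fabp4, a fatty acid carrier that endothelium also expresses. As a mean of log2(FPKM + 1), which gives each marker the same weight, the 7 were higher by 0.64 in cKO libraries (exact two-sided permutation test, p = 0.0286). Cidec, a lipid droplet protein, rose from 0.386 ± 0.0668 to 1.56 ± 0.549 FPKM (SD, n = 4; limma adjusted p = 0.0377), and Cfd, which encodes adipsin, was at 1.19 to 2.57 FPKM in control and 3.26 to 23.9 FPKM in cKO libraries (limma adjusted p = 0.128). Cidec passed the filter only through its cKO libraries, as its control mean was under 0.5 FPKM. The part of these cells in the values of Saa3, Lcn2 and Lbp was not tested. Of 7 secretory alveolar genes, limma called 4 higher in cKO libraries (Wap, Csn2, Glycam1 and Olah), beside 0.588% of all genes tested, with a median log2 fold change of 1.02. Without control replicate 4 these calls and that of Cidec are lost, as 0 genes in the whole table are then called. The study itself names several of the secretory alveolar genes on these samples, so they are no independent evidence.

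The wider defence programme was read from 7 lists of 114 further genes, of which 79 passed the filter. limma called 4 of the 79 higher and 1 lower, while of all genes tested 0.588% were called higher, 0.304% lower and 0.892% in either direction, and the median log2 fold change of the 79 was 0.03. At an unadjusted p under 0.05, 21 were higher and 10 lower, beside 8.85% and 7.53% of all genes tested. With a block for replicate number limma called 2 (Muc15 and Spp1), while limma-voom called 6 without that block and 12 with it. Without any of the 4 control replicates or without cKO replicate 2 the limma calls fell to 0. Without cKO replicate 1 there were 4, with Il1b in place of Orm1 and Tlr4, without cKO replicate 3 there were 3 (Cp, Muc15 and Spp1), and without cKO replicate 4 Muc15 was the 1 call.

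Among 15 antimicrobial protein genes that passed the filter, 2 rose, 1 fell and 12 did not pass the test. Spp1, which encodes the milk phosphoprotein osteopontin and is a gene the study chose, was at 13.8, 17.7, 25.6 and 33.0 FPKM in control and 64.8, 102, 127 and 128 FPKM in cKO libraries, with a log2 fold change of 2.20 ± 0.29 (SE, n = 4 and 4; limma adjusted p = 0.0266). Muc15, a membrane mucin of the milk fat globule, was at 69.4 to 76.8 FPKM in control and 121 to 182 FPKM in cKO libraries (log2 fold change 0.94 ± 0.12, limma adjusted p = 0.0266). Neither is an antibiotic peptide or enzyme. Chil1, a chitinase-like glycoprotein without chitinase activity, fell from 51.3 ± 5.31 to 34.3 ± 3.17 FPKM (SD, n = 4, limma adjusted p = 0.0343). That call is lost without the filter on low values and with the block for replicate number. It is also lost without any 1 of the 4 controls and without cKO replicate 2, 3 or 4. The most abundant of the list, Wfdc18, a protein with a WAP domain, was at 1469 to 2212 FPKM in control and 2526 to 3554 FPKM in cKO libraries, without overlap but with a limma adjusted p of 0.134, and the lysozyme gene Lyz2 was at 136 to 210 and 84.2 to 152 FPKM (limma adjusted p = 0.244).

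Among 15 acute phase protein genes that passed the filter, limma called 1 higher, Orm1, and limma-voom called 2, Orm1 and Cp, and the median log2 fold change was 0.04. Cp, which encodes the copper-carrying ferroxidase ceruloplasmin and was named after its values were seen, was at 20.1 to 25.1 FPKM in control and 25.9 to 45.6 FPKM in cKO libraries (limma adjusted p = 0.0842). Orm1, which encodes the plasma protein orosomucoid, was at 0.385 to 0.596 FPKM in control and 1.3 to 2.78 FPKM in cKO libraries (log2 fold change 0.86 ± 0.16, limma adjusted p = 0.0465), from 5 to 40 reads in a library. Its control mean was 0.477 FPKM, so it passed the filter only through its cKO libraries. Its call is lost without the filter, with the block for replicate number and without any 1 of the 8 libraries. Its reads may be shared with its close copy Orm2, which was at 0.682 ± 0.398 and 0.670 ± 0.413 FPKM (SD, n = 4). The abundant C3, the central complement component, was at 365 ± 37.1 and 377 ± 50.4 FPKM, Steap4, a metalloreductase, at 97.3 ± 19.2 and 129 ± 13.7 FPKM, and Ptx3, a long pentraxin, at 77.8 ± 34.9 and 52.6 ± 23.4 FPKM in control and cKO libraries (SD, n = 4). None of these passed the threshold (limma adjusted p = 0.904, 0.205 and 0.470).

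Beside Lbp stand the genes of lipopolysaccharide recognition, 11 of which passed the filter with a median log2 fold change of 0.22. Tlr4, the signalling receptor for lipopolysaccharide, rose from 8.19 ± 0.745 to 12.1 ± 0.835 FPKM (SD, n = 4, log2 fold change 0.51 ± 0.08, limma adjusted p = 0.0337). Its call is lost when libraries are scaled to the same FPKM sum or to their read totals. It is also lost without the filter on low values, with the block for replicate number and without any 1 of the 8 libraries. Cd14, the coreceptor to which LBP delivers lipopolysaccharide, was at 729 ± 59.2 FPKM in control and 726 ± 34.4 FPKM in cKO libraries (limma adjusted p = 0.985). Tlr2 was at 82.9 ± 5.21 and 89.1 ± 14.1 FPKM, and the adaptor gene Myd88 at 27.2 ± 1.73 and 32.2 ± 3.55 FPKM (SD, n = 4; limma adjusted p = 0.741 and 0.231).

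Around Sftpd, limma and limma-voom called 0 of the 6 collectin and lectin pathway genes that passed the filter. At an unadjusted p under 0.05, 1 was higher and 1 lower, beside 8.85% and 7.53% of all genes tested. The mannose-binding lectin genes Mbl1 and Mbl2 had 0 reads in all 8 libraries. Lgals3, a galectin, was at 48.3 ± 6.98 FPKM in control and 37.5 ± 4.82 FPKM in cKO libraries, Lgals9 at 33.9 ± 3.29 and 30.8 ± 4.68 FPKM, and Lman1, a cargo receptor of the secretory pathway, at 9.82 ± 0.162 and 11.0 ± 0.688 FPKM (SD, n = 4).

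Around Pigr, limma and limma-voom called 0 of the 7 genes of antibody transport and IgA. At an unadjusted p under 0.05, 2 were higher and 1 lower, beside 8.85% and 7.53% of all genes tested. Igha, the heavy chain of IgA, was at 20.4, 1.73, 55.0 and 19.5 FPKM in control and 10.1, 16.4, 12.7 and 22.4 FPKM in cKO libraries. Its control values spread far more than those of Pigr. The sum of 7 plasma cell markers was 67.8 to 728 FPKM in control and 59.6 to 116 FPKM in cKO libraries, the highest in control replicate 3 (exact two-sided permutation test, p = 0.229, adjusted p = 0.327). Ighm, the heavy chain of IgM, was at 26.7 ± 26.6 and 5.62 ± 2.84 FPKM, and Fcgrt, the neonatal Fc receptor for IgG, at 15.0 ± 2.92 and 12.2 ± 2.86 FPKM (SD, n = 4, limma adjusted p = 0.194 and 0.447). Ighm was at 66.0 FPKM in control replicate 3 and at 7.18 to 19.5 FPKM in the other controls.

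Around Lpo, 4 of 12 peroxidase system genes passed the filter, and limma and limma-voom called 0 of them. At an unadjusted p under 0.05, 2 were higher, beside 8.85% of all genes tested. Xdh, xanthine dehydrogenase of the milk fat globule membrane and a source of hydrogen peroxide, was at 33.8 to 42.8 FPKM in control and 46.8 to 61.5 FPKM in cKO libraries (limma adjusted p = 0.103). The iodide transporter Slc5a5 was at 2.44 ± 0.217 and 2.53 ± 0.423 FPKM, and Duoxa1, the maturation factor of dual oxidase, at 0.766 ± 0.137 and 1.05 ± 0.130 FPKM (SD, n = 4).

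Of 8 genes for iron binding and uptake, limma called 0 and limma-voom 2, beside 252 of all 15143 genes tested for limma-voom. At an unadjusted p under 0.05 in limma, 3 were higher, beside 8.85% of all genes tested. Fth1, ferritin heavy chain, was at 420 to 532 FPKM in control and 658 to 1019 FPKM in cKO libraries (limma adjusted p = 0.0861), and Trf, the iron carrier transferrin, at 24.1, 22.2, 36.0 and 32.7 FPKM in control and 66.7, 50.9, 31.3 and 81.1 FPKM in cKO libraries (limma adjusted p = 0.155). The ferritin light chain gene Ftl1 was at 415 ± 73.2 and 394 ± 42.8 FPKM (SD, n = 4; limma adjusted p = 0.859).

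The signalling genes known to act upstream of acute phase proteins, 21 of which passed the filter, had a median log2 fold change of -0.14. Both limma and limma-voom called 0 of them. At an unadjusted p under 0.05, 2 were higher and 5 lower, beside 8.85% and 7.53% of all genes tested. Nfkbia, the NF-kB inhibitor, was at 1005 ± 65.6 and 915 ± 100 FPKM, Cebpd at 287 ± 22.0 and 283 ± 63.6 FPKM and Cebpb, another C/EBP factor, at 281 ± 45.0 and 248 ± 58.8 FPKM in control and cKO libraries (SD, n = 4; limma adjusted p = 0.563, 0.923 and 0.637). Of 4 receptors of the member proteins that passed the filter, limma and limma-voom called 0, also at an unadjusted p under 0.05 in limma. Scarb1, a lipoprotein receptor that takes up serum amyloid A, was at 18.4 ± 1.25 and 19.5 ± 1.39 FPKM, Lrp1, an endocytic receptor for lactoferrin, at 10.8 ± 2.74 and 9.33 ± 2.10 FPKM, and Slc22a17, a receptor for lipocalin 2, at 4.66 ± 0.840 and 4.61 ± 0.788 FPKM (SD, n = 4).

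**Figure D5:**
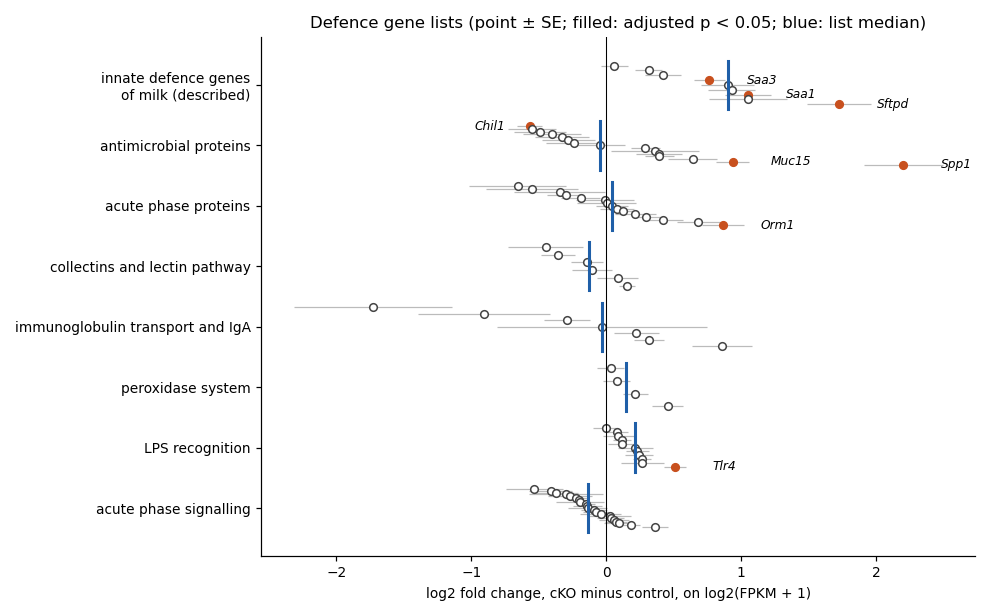
Log2 fold change ± SE (x axis, cKO minus control on log2(FPKM + 1)) of the 9 described genes and of the tested genes of 7 defence lists, where filled points have a limma adjusted p under 0.05 and blue bars are medians. The 9 genes, which were chosen with these values known, have a median of 0.90, and the medians of the lists run from -0.14 to 0.22.

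On each side of a member, the nearest protein-coding gene with a mean of at least 0.5 FPKM was read, which passes over genes below that level and can lie far away, up to 2512678 bases for Gm7324 beside Sftpd. Of 14 such genes that are no member, limma called 0, with 2 at an unadjusted p under 0.05 (16.4% of all genes tested) and 0 called by limma-voom, and the groups lay apart in 0 of them (10.7% of all genes tested). Saal1, which ends 1317 bases from Saa3, had a log2 fold change of 0.01 ± 0.09, and Hps5, 6152 bases beyond Saa2, had 0.15 ± 0.10 (SE, n = 4 and 4). On either side of Pigr, Fcamr had 0.22 ± 0.17 and Fcmr -0.74 ± 0.42.

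The genes whose values were most like those of each member were found by Pearson's r of log2(FPKM + 1) over the 8 libraries. For all genes tested, the median r with the nearest gene was 0.974, so a high r is common with 8 points that share libraries and a group difference. Sftpd was nearest to Gjb2, a gap junction gene, at an r of 0.992, followed by Gorasp1 and the zinc transporter gene Slc30a2. Pigr was nearest to Scd1, a fatty acid desaturase, at 0.984, followed by Btn1a1, a butyrophilin of the milk fat globule, at 0.981 and Cln3 at 0.980. Saa1 was nearest to Slc39a14, a zinc and iron importer, at 0.987, followed by Ankrd33b and by Saa2, while Saa2 was nearest to Tbc1d8 and Hoga1 and then to Saa1. Saa3 was nearest to Aldh6a1, Irgq and Myo5c, Ltf to Rc3h1, Arih1 and Wac, and Lcn2 to Hcfc2, 2310030G06Rik and the survival gene Bcl2l1. Lpo was nearest to Dcun1d5 at 0.992, then to Dhcr7, of cholesterol synthesis, and Syt9, although its mean control level was under 1 FPKM. Lbp had the least like nearest gene, Car6, a secreted carbonic anhydrase, at 0.959, followed by Dab2 and Vsir.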

How the data were processed

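The 9 genes and all lists were chosen with earlier results of these data known. Per the study's methods, the authors prepared NEBNext Ultra libraries, mapped reads to GRCm38 with Hisat2 and calculated FPKM. The submitters' processing notes name StringTie 1.3.3b, featureCounts 1.5.0-p3 and mm9, but 99.7% of 55394 shared gene identifiers have the coordinates of GENCODE vM21, which is GRCm38. The deposited FPKM were whole multiples of a read (tolerance 0.01 reads) for 100% of values and already include median-of-ratios size factors. Strand-specific counting is not stated.

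FPKM are not counts, so log2(FPKM + 1) was tested with limma 3.58.1 in R 4.3.3 (empirical Bayes with trend, Benjamini-Hochberg adjustment) over the 15143 genes with a mean of at least 0.5 FPKM. For marker sums the exact two-sided permutation test was used, whose smallest p with 4 libraries in each group is 0.0286. Of each list the text names genes with an adjusted p under 0.05 and the 3 most abundant, and of the marker lists those that bear on a member. It also names the nearest expressed genes beside a member and the 3 most alike by Pearson's r. The procedure was also run on simulated counts, drawn independently for each library with a single fixed dispersion. That run had no likeness between libraries, so it does not show how the fit behaves on these data. Python 3.11.15, pandas 2.3.3, scipy 1.17.1, Biopython 1.88 and matplotlib 3.10.9 were used. The limma p-values set a group difference against the spread between mice within groups, and the permutation p-values against all regroupings of the 8 libraries. Alternatives are given in the closing section.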

Additional observations from a re-analysis of the deposited data

Results flagged for a closer look

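In 4 of 26 groups of 4 libraries, a single library lay far from the others (the gap to its neighbour, as a share of the group's range, was past Dixon's critical value), and chance alone flags about 1 in 20 groups. Saa1 was at 19.2 FPKM in cKO replicate 2 and at 29.1 to 30.0 FPKM in the other cKO libraries. Lbp was at 18.9 FPKM in control replicate 3 and at 14.9 to 15.4 FPKM in the other controls. The adipocyte marker sum was 102 FPKM in cKO replicate 1 and 136 to 138 FPKM in the other cKO libraries. The plasma cell marker sum was 728 FPKM in control replicate 3 and 67.8 to 158 FPKM in the other controls. Control replicate 3 is thus the far library for both Lbp and the plasma cell markers, and whether these are related was not tested.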

How the results depend on the processing

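Of the 9 genes, 8 had a higher cKO mean under each of the 19 alternatives, and Ltf under 16 of them. Without a filter on low values 0 of the 9 had an adjusted p under 0.05, against 3 as reported, and 0 of the other defence genes against 5. With limma-voom on the recovered reads there were 5 members, and Lpo had a log2 fold change of 1.44. A block of replicates 1 and 2 against 3 and 4 gave 5 members and 442 genes in all, against 135 as reported, 15 without a filter and 252 with limma-voom. Over the fits that each left out 1 library, the counts were 0 to 3 members, 0 to 4 other defence genes and 0 to 78 genes in all. Without Spp1, Muc15 and Xdh, which the study's text names, and Muc1, an alternative chosen after seeing the data, 3 other defence genes were called. The neutrophil marker difference turned from 31.3 to -1.31 FPKM without S100a8 and S100a9, also chosen after seeing the data, and to -0.12 as a mean of log2(FPKM + 1). The adipocyte difference as a mean of log2(FPKM + 1) was 0.64 (exact two-sided permutation test, p = 0.0286, the smallest p that 4 against 4 libraries allow). Scaling to the same FPKM sum or to read totals moved the split of called genes from 89 higher and 46 lower to 70 and 62 or 79 and 92, and at an unadjusted p under 0.05 from 1340 and 1140 to 788 and 1656 or 863 and 1795.

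The groups share replicate numbers, but the deviations of same-numbered libraries correlated by only 0.137, 0.11, 0.116 and 0.0797 over genes, so the numbers were not taken as pairs. Different numbers within replicates 1 and 2 or within 3 and 4 correlated by 0.130 on average and libraries across these sets by -0.120, a pattern known from earlier results of these data when the block of these sets was listed as an alternative. With the replicate block, limma called 0 members, 2 other defence genes (Muc15 and Spp1) and 50 genes in all. With the replicate block in limma-voom it called 7 members, with log2 fold changes of 2.15 for Sftpd and 1.49 for Lpo, 12 other defence genes and 680 genes in all. The causes of these shifts were not tested. Lpo and Orm1 rest on low read counts, and precision is limited by having 4 mice per group.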
